A study of Mus musculus with 6 samples.

Results

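The genes described here encode 10 matricellular proteins: the thrombospondins Thbs1, Thbs2, Thbs3 and Thbs4, the related cartilage oligomeric matrix protein gene Comp, periostin (Postn), tenascin-C (Tnc), the spondins Spon1 and Spon2, and Cthrc1. They were chosen by name as a protein class, with earlier results of these data known, and all 10 were among the 16494 genes of the count table. They were followed by single-cell RNA sequencing of lower abdominal muscle (LAM) from male FVB/N mice aged 9 to 10 weeks, 3 of them wild-type (WT) and 3 Arom. Arom mice carry the human aromatase gene CYP19A1 under its own tissue-specific promoters, and the level of the transgene by cell type is not given here. The labels give Arom mice as having a scrotal hernia where WT mice are controls. Each library was made from the dissociated LAM of a single mouse, and multinucleated fibers were removed by filtration. The comparison asks in which LAM cells the RNA of these proteins differs between genotypes.

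Matricellular proteins are secreted into the extracellular matrix (ECM) but do not build its fibers. They bind integrins, CD36, CD47 and other receptors on cells, hold or release growth factors such as TGF-beta, and bind collagens and the enzymes that crosslink them. In adult muscle most are low outside tendon and vessel wall, and many are raised in development, wound repair and fibrosis, with fibroblasts as a main source.

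The libraries held 64958237 to 111826460 unique molecular identifiers (UMIs), with medians of 4728.5 to 5897 UMIs per barcode in WT and 6673 to 8727 in Arom mice. The median mitochondrial share of UMIs was 4.07%, 6.62% and 4.36% in WT mice 1, 2 and 3 and 3.81%, 3.85% and 3.58% in Arom mice 1, 2 and 3. In WT mouse 2, 68.2% of barcodes held over 5% mitochondrial UMIs, against 27.6% to 40.1% in the other mice. The part of this difference in the results was not tested. CYP19A1 had 0 UMIs in every WT library and 770, 797 and 787 UMIs in Arom mice 1, 2 and 3. Of 63647 barcodes, 59227 with at least 200 genes and 1000 UMIs were used, and 23313 of these fell into clusters with fibroblast markers, called fibroblast-like cells. The summed level of 6 fibroblast markers was 35588 to 42328 counts-per-million (CPM, the UMIs of a gene scaled to the total UMIs of that cell type in a mouse) in fibroblast-like cells and 195 to 479 CPM in endothelial cells. The number of UMIs and of mice limits the precision, and p-values measure the spread between these 6 mice.

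In GRCm38 Thbs1 lies at chr2:118111876-118127133, Thbs2 at chr17:14665500-14694235, Thbs3 at chr3:89215180-89226837, Thbs4 at chr13:92751590-92794818, Comp at chr8:70373558-70382066, Postn at chr3:54361109-54391037, Tnc at chr4:63959785-64047015, Spon1 at chr7:113765998-114043370, Spon2 at chr5:33198184-33218455 and Cthrc1 at chr15:39076932-39087121. Thbs3 lies wholly within Mtx1 on the other strand. Molecules were counted with Cell Ranger 3.0.2, and its use of strand is not given in the sources used here. Whether reads of Mtx1 entered the values of Thbs3 was not tested. Promoter sequence from RefSeq (GRCm38.p6) was at hand for 5 of the 10 genes. Those of Thbs2, Postn and Tnc are shown because these genes were higher in Arom fibroblast-like cells, each as the 250 bases before a start site, with matches to a TATA box or a CCAAT box on either strand in capitals. The windows are chr17:14694263-14694512 on the minus strand, chr3:54360857-54361106 on the plus strand and chr4:64047016-64047265 on the minus strand.
Thbs2: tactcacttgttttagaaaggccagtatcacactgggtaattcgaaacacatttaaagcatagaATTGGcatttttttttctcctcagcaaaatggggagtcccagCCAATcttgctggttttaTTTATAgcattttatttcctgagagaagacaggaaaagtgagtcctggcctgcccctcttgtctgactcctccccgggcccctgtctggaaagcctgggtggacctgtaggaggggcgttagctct
Postn: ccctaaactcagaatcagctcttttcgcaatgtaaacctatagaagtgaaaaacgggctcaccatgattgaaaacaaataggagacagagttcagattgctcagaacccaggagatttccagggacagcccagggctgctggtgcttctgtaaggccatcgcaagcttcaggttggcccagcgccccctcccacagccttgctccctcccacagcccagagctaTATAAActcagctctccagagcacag
Tnc: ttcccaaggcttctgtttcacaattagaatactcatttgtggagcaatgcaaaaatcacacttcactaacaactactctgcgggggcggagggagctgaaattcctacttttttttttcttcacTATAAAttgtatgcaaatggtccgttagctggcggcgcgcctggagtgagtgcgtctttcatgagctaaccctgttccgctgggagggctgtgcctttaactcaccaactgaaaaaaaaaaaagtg

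Postn has TATAAA 26 bases before its start, and Tnc has it 126 bases before. Thbs2 has TTTATA, the same motif on the other strand, 126 bases before its start, CCAAT 144 bases before and ATTGG 186 bases before. Of 32851 mouse promoter windows of the same length, 12.4% hold TATAAA and 33.8% hold CCAAT on either strand. None of the 3 windows shown holds the letters of an estrogen response element (the GGTCA half-site and its reverse complement 3 bases apart, in 0.0639% of promoters), of the half-site alone (GGTCA, 35.2%), an AP-1 site (TGANTCA, 6.75%) or a TEAD site (GGAATG, 12.6%). RefSeq gives Postn and Tnc each a second start site, and the window before that of Postn, at base 54359267, holds TGACC, the half-site on the other strand, 138 bases before the start. These are matches of letters only.

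Fibroblast-like cells were the main source of all 10 RNAs. On average over the mice they gave from 72.6% of the UMIs of Tnc to 93.03% of those of Thbs4. Ranked by mean CPM over the 6 mice, 7 of the 10 genes were highest in fibroblast-like cells, as shown in the map of levels by cell type. Their lead over the next cell type went beyond the spread of the mice for Thbs3, at 182 ± 40.5 CPM (SD, n = 6 mice) against 58.1 ± 18.6 CPM in mesothelial cells, and for Thbs4, at 764 ± 230 CPM against 109 ± 51.8 CPM in glial cells. For Thbs2, Comp, Spon1, Spon2 and Cthrc1 the mice of the next cell type overlapped those of fibroblast-like cells. With the UMIs of all mice pooled, lymphatic endothelial cells had Comp at 59.5% of the level in fibroblast-like cells. Col1a1 stood there at 3.6% and Dcn at 6.06%.

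The other 3 genes led elsewhere. Thbs1 was highest in smooth muscle cells, at 1330 ± 154 CPM, next to 1073 ± 121 CPM in fibroblast-like cells, and was higher there in 5 of the 6 mice, while pericytes followed at 395 ± 125 CPM with no overlap. Tnc was highest in smooth muscle cells, at 325 ± 148 CPM against 106 ± 66.0 CPM in fibroblast-like cells, and was higher there in each of the 6 mice. Postn was highest in glial cells, at 606 ± 175 CPM against 490 ± 236 CPM in fibroblast-like cells, and was higher in glial cells in 4 of the 6 mice. Within glial cells the level of Postn was 93.7% of that in fibroblast-like cells when the UMIs of all mice were pooled, whereas for the collagen gene Col1a1 it was 15.4% and for decorin (Dcn) 30.7%.

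**Figure D1:**
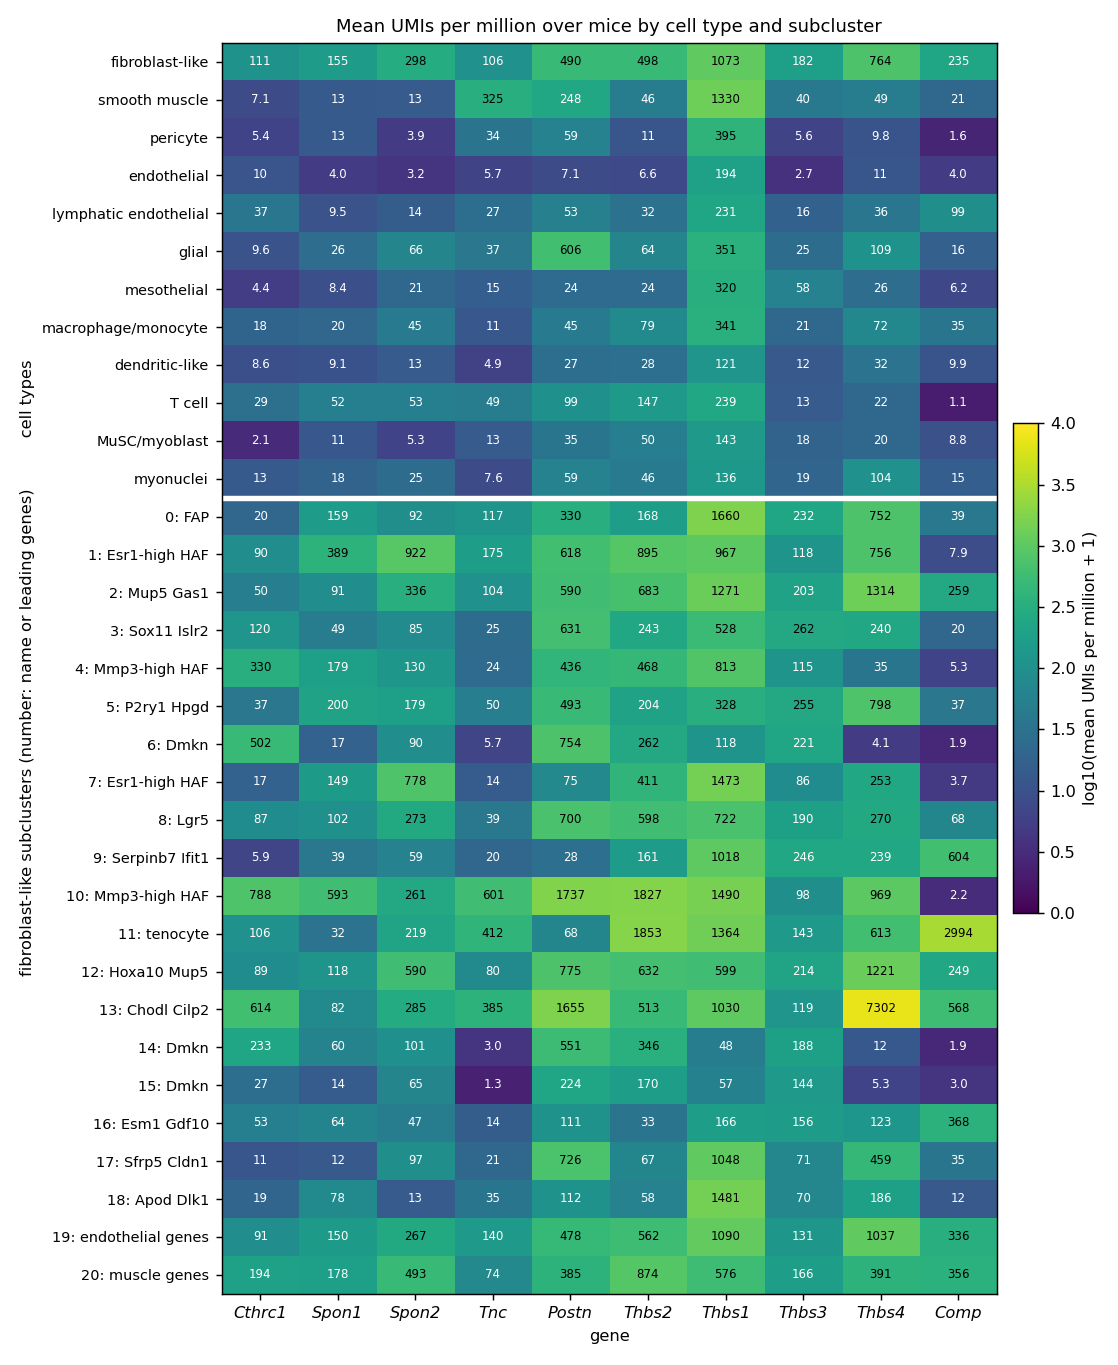
Mean CPM over the mice of each of the 10 genes (columns) in each named cell type (upper rows) and each fibroblast-like subcluster (lower rows), printed in each cell and colored by log10(mean + 1). Among cell types the fibroblast-like row is the highest for 7 genes, with Thbs1 and Tnc highest in smooth muscle cells and Postn in glial cells.

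Between genotypes, fibroblast-like cells of Arom mice held more RNA of 6 of the 10 genes, and none was called lower (edgeR quasi-likelihood test, Benjamini-Hochberg adjustment over 14022 genes, threshold 0.05). Of all genes tested, 7.02% were called higher and 5.91% lower. The 6 genes were Cthrc1, Spon1, Spon2, Tnc, Postn and Thbs2, and in each of them the 3 Arom mice lay above the 3 WT mice. Over all genes, 21% had the Arom mice above the WT mice. The median log2 fold change was 1.25 over the 10 genes and -0.000979 over all genes tested.

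Of the small trimeric thrombospondins, which bind CD36 and CD47, only Thbs2 was called. Thbs2 stood at 360, 300.3 and 241 CPM in WT mice 1, 2 and 3 and at 728, 894 and 464 CPM in Arom mice 1, 2 and 3. The groups did not overlap, and Arom mouse 3 was the lowest of its group (log2 fold change 1.203 ± 0.29 SE, adjusted p = 0.0407). Thbs1, which can activate latent TGF-beta, stood at 893, 1006 and 1246 CPM in WT and at 1135, 1116 and 1039 CPM in Arom mice. Its Arom values lay inside the WT range, with a log2 fold change of 0.06 ± 0.15 and an adjusted p of 0.816.

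None of the pentameric thrombospondins was called, and of these Comp had the largest difference. Comp, which binds collagen in tendon and cartilage, stood at 218, 466 and 400 CPM in WT and at 67.4, 32.6 and 227 CPM in Arom mice (log2 fold change -1.76 ± 0.65, adjusted p = 0.109). Arom mouse 3 lay just above WT mouse 1, and the groups overlapped in these mice alone. Thbs4, a tendon and muscle matrix protein, stood at 499, 996 and 793 CPM in WT and at 716, 528 and 1049 CPM in Arom mice, with the genotypes mixed (log2 fold change -0.01 ± 0.29). Thbs3 stood at 179, 215 and 194 CPM in WT and at 145, 126 and 231 CPM in Arom mice, with Arom mouse 3 above every WT mouse and the other two below (log2 fold change -0.25 ± 0.20).

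The ECM adaptor genes Postn and Tnc were both higher. Postn, whose protein binds integrins and takes part in collagen crosslinking, stood at 224, 381 and 249 CPM in WT and at 780, 680 and 627 CPM in Arom mice. The lowest Arom mouse was well above the highest WT mouse (log2 fold change 1.29 ± 0.21, adjusted p = 0.0209). Tnc, a glycoprotein of matrix under repair, stood at 32.7, 64.1 and 65.9 CPM in WT and at 216, 128 and 129 CPM in Arom mice. Arom mouse 1 was the highest, and the groups did not overlap (log2 fold change 1.55 ± 0.32, adjusted p = 0.0308). With the replicate number added to the fit as a block, Tnc was not called.

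The spondin genes and Cthrc1 had the largest differences. Spon1 (F-spondin) stood at 53.7, 31.5 and 40.6 CPM in WT and at 329, 295 and 181 CPM in Arom mice. The Arom mean was 6.40 times the WT mean (log2 fold change 2.66 ± 0.32, adjusted p = 0.0160). Spon2 (mindin), an integrin ligand also known from innate immunity, stood at 106, 182 and 118 CPM in WT and at 553, 415 and 413 CPM in Arom mice. Its groups were far apart, and the Arom mean was 3.40 times the WT mean (log2 fold change 1.76 ± 0.23, adjusted p = 0.0169). Cthrc1, a secreted protein known from activated fibroblasts and injured vessels, stood at 19.02, 21.1 and 13.1 CPM in WT and at 331, 235 and 44.0 CPM in Arom mice. All 3 Arom mice were above WT, but Arom mouse 3 was much closer to WT than the other two (log2 fold change 3.53 ± 0.71, adjusted p = 0.0297).

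**Figure D2:**
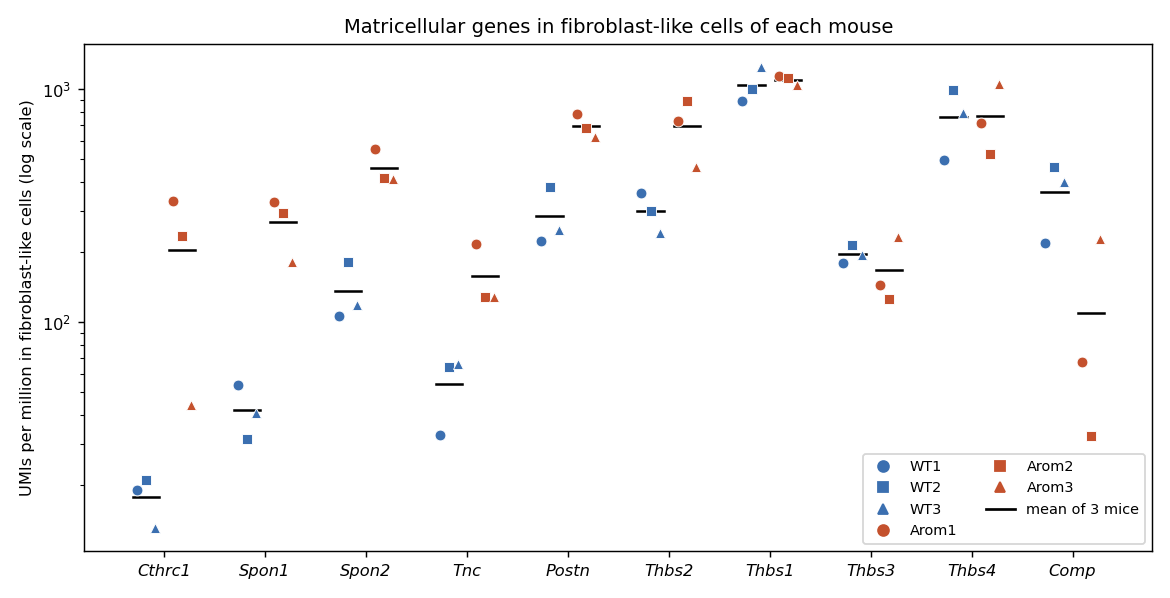
CPM of each gene in the fibroblast-like cells of each mouse, on a log axis, with a blue symbol for each WT mouse, a red symbol for each Arom mouse and a line for the mean of the 3 mice. The Arom points lie above the WT points for Thbs2, Postn, Tnc, Spon1, Spon2 and Cthrc1, and overlap them for the other 4 genes.

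The calls differed with the mouse left out and with the range of cells kept, and the cause was not tested. Without Arom mouse 3 the same test called 8 genes, the 6 above higher and Comp (log2 fold change -2.81) and Thbs3 (log2 fold change -0.50) lower, while the share of all genes called rose to 15.6% higher and 13.5% lower. Without WT mouse 1 it called only Spon1, and 1.1% of all genes in either direction. Without any other mouse it called 0 of the 10 and 0.0214% to 0.0998% of all genes, against 12.9% with every mouse. In these fits 6 or 7 of the 10 had an unadjusted p under 0.05. The share of all genes at that unadjusted threshold is not given here, for this or any later count of the kind. Such counts are descriptions only, and the shares beside them are at the adjusted threshold. Within the upper limits given in the study's methods (2500 genes and 5% mitochondrial UMIs), which left 1532 to 4932 barcodes of each mouse, edgeR called 0 of the 10 genes and 1 of 10941 genes in all, and 5 of the 10 had an unadjusted p under 0.05. The 6 log2 fold changes were there 0.58 to 2.80, with adjusted p from 0.130 to 0.433. Markers of other cell types in the fibroblast-like sums were low next to the fibroblast markers, but those of macrophages stood at 14.5 to 16.8 CPM in WT and 21.2 to 44.7 CPM in Arom mice, those of dendritic cells at 3.73 to 8.44 CPM and 14.7 to 35.6 CPM, and those of T cells at 3.55 to 5.11 CPM and 5.32 to 14.2 CPM. Those of smooth muscle, the cell type highest in Tnc and Thbs1, stood at 46.8, 44.1 and 113 CPM in WT and at 198, 323 and 83.9 CPM in Arom mice, with Arom mouse 3 below WT mouse 3. The part of these lists in the results was not tested.

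The share of fibroblast-like cells with a UMI of each gene was compared after every cell was thinned to 1000 UMIs, because Arom libraries were deeper. Cthrc1 was seen in at most 1.86% of the cells of a WT mouse and in 16.5%, 14.4% and 2.98% of cells of Arom mice 1, 2 and 3. Spon1 was seen in 4.65%, 3.09% and 3.14% of WT and 21.4%, 17.7% and 12.2% of Arom cells. For these and for Thbs2, Postn, Tnc and Spon2 the genotypes did not overlap, and the exact permutation test (2-sided) gave p = 0.1, the smallest that 3 against 3 mice can give. Of all genes tested, 12.8% had the thinned shares of the Arom mice above those of the WT mice. In endothelial cells thinned alike, with a median of 3996 UMIs before thinning against 9863 UMIs in fibroblast-like cells, Cthrc1 was seen in 0.327% to 0.619% of WT and 0.407% to 1.80% of Arom cells. Spon1 was seen in 0.0310% to 0.377% and 0.356% to 0.443% of them.

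Fibroblast-like cells were split further into 21 subclusters, with the 10 genes kept out of the clustering, and each was named from markers or called by genes among the 10 that lead it. By level, Comp marked a single subcluster, the tenocytes (led by Wif1, Chad, Kera and Tnmd), at 2994 ± 534 CPM, with 2282 CPM in the lowest mouse against 1111 CPM in the highest mouse of the next subcluster. Tenocytes are few, and held 45.4%, 29.6% and 37.6% of the Comp UMIs of fibroblast-like cells in WT mice 1, 2 and 3. In Arom mice 1, 2 and 3 they held 53.9%, 54.1% and 59.6%. Thbs4 marked another, led by Ptx4, Chodl and Cilp2, at 7302 ± 1229 CPM, with 5929 CPM in the lowest mouse and 1722 CPM in the highest mouse of the next. Thbs2 was shared by tenocytes (1853 ± 458 CPM) and by a subcluster with markers of Mmp3-high hernia-associated fibroblasts (HAFs) led by Saa3 and Lrrc15, which had enough cells only in Arom mice 1 and 2 (1721 and 1933 CPM). In the latter, Postn stood at 2053 and 1421 CPM, Tnc at 836 and 366 CPM, Spon1 at 582 and 604 CPM and Cthrc1 at 1057 and 518 CPM. Spon2 was highest in a subcluster with markers of Esr1-high HAFs, at 1106, 817 and 1157 CPM in Arom mice 1, 2 and 3.

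The HAF subclusters held too few WT cells for a test within them, with 22 Esr1-high HAFs in the 3 WT mice against 3633 in the 3 Arom mice and 27 Mmp3-high HAFs against 2232. Mmp3-high HAFs numbered 27, 0 and 0 in WT mice 1, 2 and 3 and 776, 1448 and 8 in Arom mice 1, 2 and 3. Arom mouse 3 thus held few of them. The leading genes of the HAF subclusters differ between genotypes, so these numbers are given only to show which cells a sum holds. In the fibroblast-like sum of Spon2, Esr1-high HAFs supplied 422, 298 and 256 CPM of the totals of Arom mice 1, 2 and 3, and 4.39, 3.05 and 0.287 CPM of those of WT mice. In that of Cthrc1, Mmp3-high HAFs supplied 139, 102 and 1.24 CPM in Arom mice 1, 2 and 3, Dmkn fibroblasts 56.3, 54.4 and 2.55 CPM and Esr1-high HAFs 52.0 and 35.1 CPM in Arom mice 1 and 2 and 11.7 CPM in Arom mouse 3. Arom mouse 3 was the lowest in each of these. The Dmkn fibroblasts include a subcluster with too few WT cells for a test. It held 5, 0 and 2 cells in WT mice 1, 2 and 3 and 292, 791 and 11 cells in Arom mice 1, 2 and 3. With only the subclusters that had at least 20 cells in every mouse, a choice made after seeing the data, 4 of the 10 genes were called against 5.22% of all genes, and Thbs2 and Spon2, each with a log2 fold change of 0.62, were not called. These subclusters held 89.1%, 99.3% and 98.5% of the fibroblast-like cells of WT mice 1, 2 and 3 and 46.3%, 35.1% and 84.6% of those of Arom mice 1, 2 and 3.

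**Figure D3:**
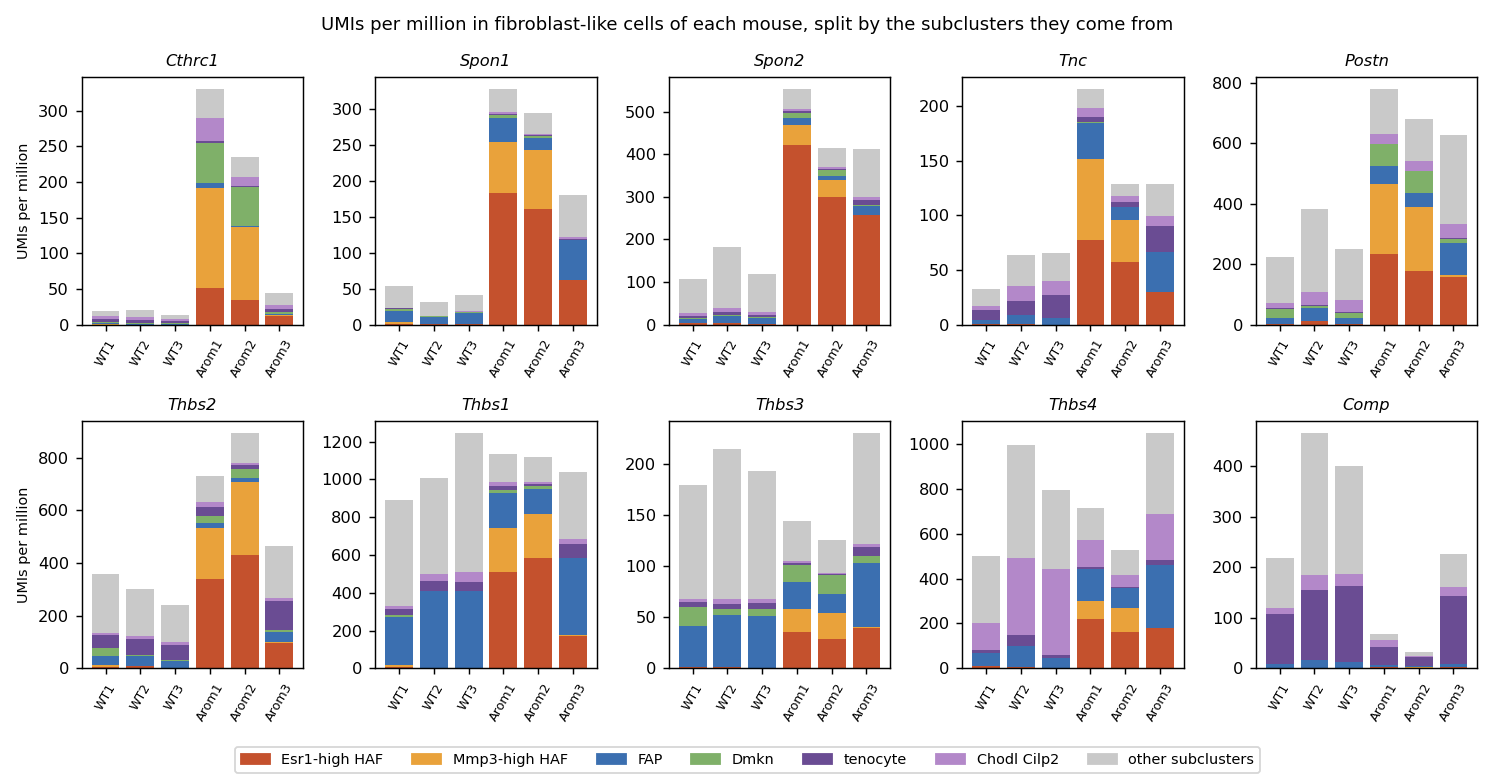
CPM of each gene in the fibroblast-like sum of each mouse, stacked by the subcluster names that supplied it, on linear axes that start at 0. Esr1-high HAFs make up most of Spon2 in the 3 Arom mice, and Mmp3-high HAFs supply Cthrc1 in Arom mice 1 and 2. Tenocytes supply a large part of Comp, as do other subclusters in WT mice.

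Within subclusters, 14 could be compared between genotypes, and the 10 genes gave 30 calls higher and 4 lower in Arom. The calls were 60 higher and 8 lower with no filter on low counts, 50 and 8 with the replicate block, and with a mouse left out 41 higher without Arom mouse 3 and 19 to 22 higher without any other mouse. The share of all genes called moved as well, from 0% to 4.92% over the 14 subclusters to 0.539% to 4.89% with no filter and 0.0207% to 11.1% with the block, to 0.0213% to 12.9% without Arom mouse 3, and to at most 1.11% to 2.52% without any other mouse. The subcluster led by the endothelial genes Gpihbp1 and Cldn5 is among the 14, although its leading genes go against the name fibroblast-like. It gave 4 of the calls, and whether its barcodes are doublets or endothelial cells was not tested. Spon1 was called higher in 7 of the 12 subclusters in which it was tested, with a positive log2 fold change in all 12 (0.68 to 3.21). Cthrc1 was called higher in 6 of 11, Postn in 4 of 14, Spon2 in 4 of 13, Tnc in 3 of 10 and Thbs2 in 2 of 14. In 2 of its 6 subclusters, those led by P2ry1 and Hpgd and by Hoxa10 and Mup5, Cthrc1 passed the filter on low counts through the Arom mice. Comp was never higher and was called lower in 3 of 10, with a negative log2 fold change in each. Thbs1 was called lower in 1 of 14, and Thbs3 in none by edgeR.

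Thbs4, which did not differ over all fibroblast-like cells, was called higher in 4 of the 12 subclusters in which it was tested, and 1 of these calls had nearly no UMIs in WT. In the fibro-adipogenic progenitor (FAP) subcluster it stood at 297, 381 and 201 CPM in WT and at 1292, 1133 and 1209 CPM in Arom mice. The Arom mice were close to each other and far above WT (log2 fold change 2.00 ± 0.20, adjusted p = 0.00206). In the subcluster led by Sox11 and Islr2 it stood at 91.0, 61.9 and 34.1 CPM in WT and at 451, 323 and 481 CPM in Arom mice (log2 fold change 2.62 ± 0.25). In that led by P2ry1 and Hpgd it stood at 207, 479 and 240 CPM in WT and at 1423, 887 and 1554 CPM in Arom mice (log2 fold change 2.05 ± 0.28). These 3 calls held without each of the 6 mice in turn. The fourth, in the subcluster led by Esm1 and Gdf10, rested on 0 to 5.03 CPM in WT (at most 2 UMIs in a mouse) against 60.9 to 393 CPM in Arom mice. There Thbs4 passed the filter on low counts only through the Arom mice, so its call supports nothing further, and it held in 3 of the 6 fits without a mouse.

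Thbs4 was not called in the subcluster where it was highest. In that subcluster, led by Ptx4, Chodl and Cilp2, it stood at 6343, 8375 and 8423 CPM in WT and at 5929, 6291 and 8450 CPM in Arom mice, with overlap. That subcluster supplied 120, 343 and 385 CPM of Thbs4 in the fibroblast-like sums of WT mice and 121, 55.6 and 202 CPM in those of Arom mice. FAPs supplied 58.8, 92.5 and 47.0 CPM in WT and 139, 87.7 and 278 CPM in Arom mice, and Esr1-high HAFs supplied 8.67, 7.48 and 0.172 CPM in WT and 222, 163 and 178 CPM in Arom mice. Subclusters outside these and other named groups together supplied 295, 507 and 350.02 CPM in WT and 143, 111 and 363 CPM in Arom mice. Equal weight was also given to each of the 14 subclusters compared between genotypes (limma). These leave out the HAF subclusters and include that led by Esm1 and Gdf10, with its log2 fold change of 6.29. The log2 fold change of Thbs4 was then 1.22 (adjusted p = 0.00104), and 2.23% of all genes were called. With all fibroblast-like cells summed, HAFs among them, it was -0.01. The part of the Esm1 and Gdf10 subcluster in the value of 1.22 was not tested.

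Comp went the other way in the FAP subcluster, at 40.8, 66.6 and 56.4 CPM in WT and 29.2, 15.4 and 23.8 CPM in Arom mice (log2 fold change -1.28 ± 0.22, adjusted p = 0.0141). It also fell in the subcluster led by P2ry1 and Hpgd (log2 fold change -1.81 ± 0.22), a call held without each mouse in turn, and in that led by Hoxa10 and Mup5 (-1.93 ± 0.44), held in 2 of 6 such fits. In the latter Thbs1 fell as well, from 592, 789 and 1250 CPM in WT to 232, 408 and 322 CPM in Arom mice (log2 fold change -1.45 ± 0.26), while Spon1, Cthrc1 and Tnc rose, calls held in 6, 3 and 2 of the 6 fits without a mouse. In tenocytes, where Comp was highest, it stood at 3307, 3275 and 3617 CPM in WT and at 2282, 2405 and 3082 CPM in Arom mice, and edgeR called 0 of the 10 genes, with 5 at an unadjusted p under 0.05 and Spon1 called by DESeq2. With the replicate block it called 4 there, Comp lower (log2 fold change -0.52) and Thbs2, Spon1 and Spon2 higher, against 4.2% of all genes, and with no filter on low counts Spon1 and Spon2, against 1.93%.

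In the FAP subcluster 7 of 10 genes were called against 4.92% of all genes. Tnc rose there from 19.2, 32.9 and 27.2 CPM in WT to 308, 154 and 160 CPM in Arom mice (log2 fold change 2.95 ± 0.29), and Postn from 93.01, 171 and 91.3 CPM to 564, 600 and 461 CPM (2.15 ± 0.22). Spon1, Spon2 and Cthrc1 were also higher, Spon2 and Cthrc1 each in only 1 of 6 fits without a mouse. The subcluster led by Sox11 and Islr2 had 6 genes called against 4.45% of all genes, with Cthrc1 at 7.11, 15.5 and 17.1 CPM in WT and 382, 245 and 53.8 CPM in Arom mice (log2 fold change 4.17 ± 0.65). With the replicate block 9 genes were called there, against 11.1% of all genes, and 7 in the FAP subcluster, against 5.34% higher and 5.12% lower. That led by P2ry1 and Hpgd had 5 called against 1.46%, that led by Hoxa10 and Mup5 had 5 against 1.63%, that led by Mup5 and Gas1 had 4 against 1.74%, and that led by Gpihbp1 and Cldn5 had 4 against 0.649%, Spon1 among them. With a mouse left out, the calls in that led by Mup5 and Gas1 held in 1 (Thbs2) to 4 (Spon1 and Cthrc1) of 6 fits. Those in that led by Gpihbp1 and Cldn5 held in 1 (Cthrc1) to 5 (Spon1) of 6. In each of the next subclusters a single gene was called. In that led by Ptx4, Chodl and Cilp2 it was Spon1, against 0.0443%, in 3 of 6 fits without a mouse. With no filter on low counts 5 genes were called there, against 3.68%. In a Dmkn subcluster it was Spon2, against 0.0827%, in 1 of 6 fits without a mouse and not with the replicate block. In that led by Esm1 and Gdf10 it was Thbs4, against 0.0498%. In tenocytes (0.772% of all genes called), in that led by Serpinb7 and Ifit1 (0.0366%), in another Dmkn subcluster (0%), in that led by Sfrp5 and Cldn1 (0.0684%) and in the Apod Dlk1 subcluster (0%) edgeR called 0 of the 6 to 10 genes tested, with 2 to 7 of them at an unadjusted p under 0.05 and 1 or 2 called by DESeq2 (0.395% to 2.03% of all genes). In these 5, in that order, edgeR called 4, 4, 2, 0 and 1 genes with the replicate block (4.2%, 3.91%, 0.221%, 0.53% and 0.392% of all genes) and 2, 6, 2, 7 and 1 with no filter on low counts (1.93%, 2.58%, 1.54%, 1.46% and 0.558%).

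**Figure D4:**
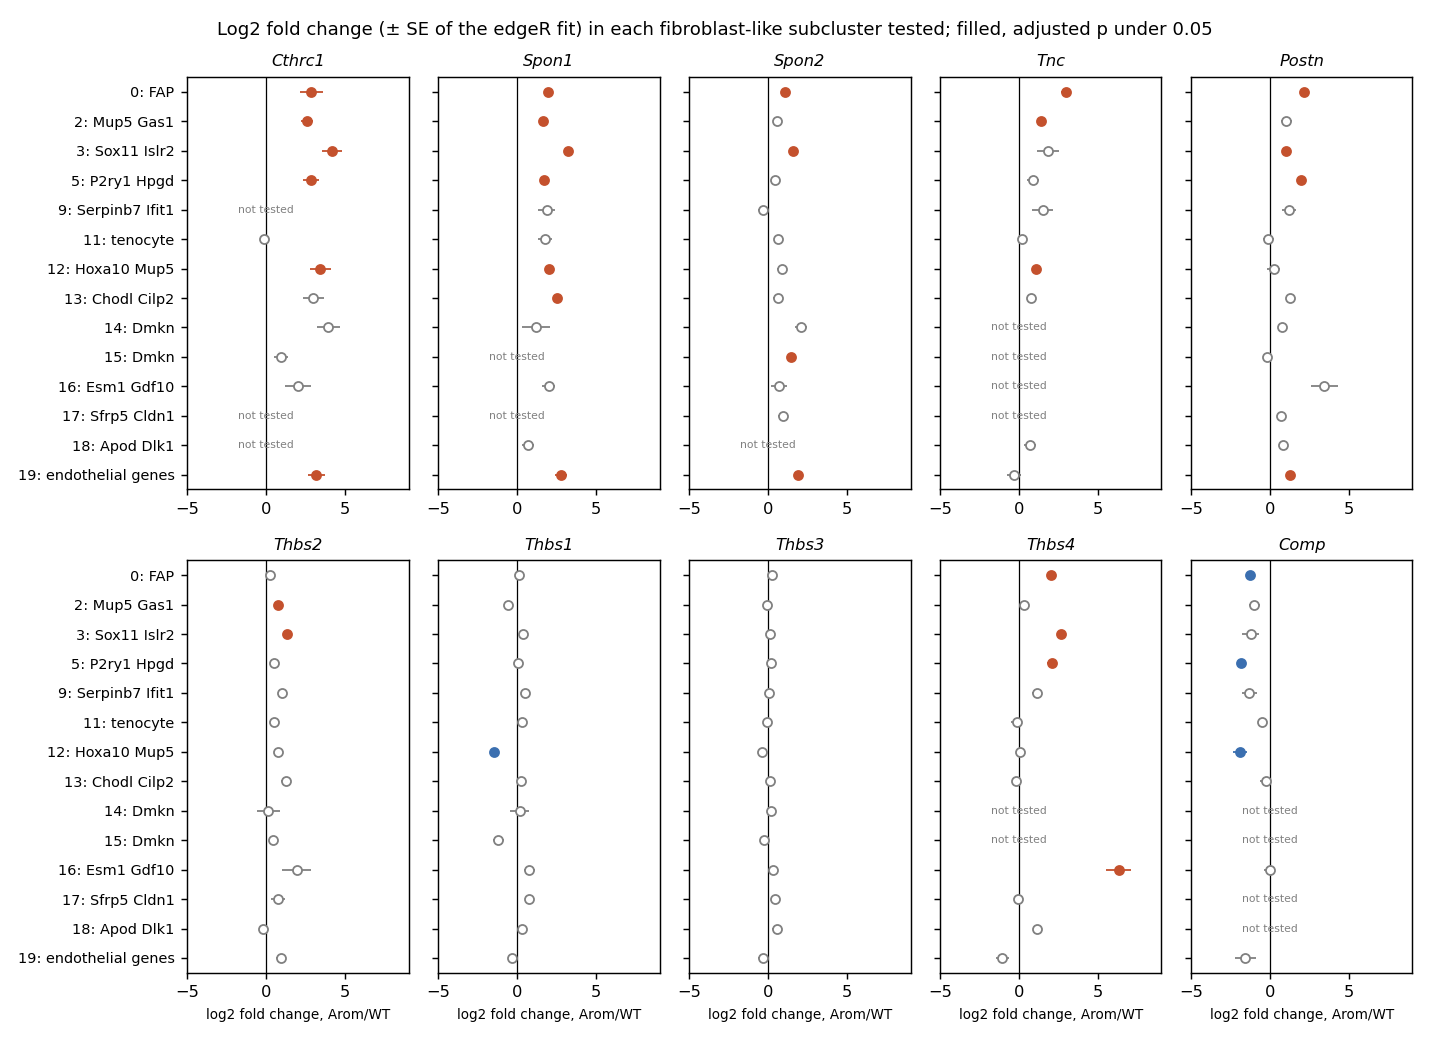
Log2 fold change (Arom against WT) of each gene in the 14 fibroblast subclusters tested, as points with bars of ± 1 SE on a linear axis, filled where the adjusted p was under 0.05 (red higher, blue lower). Spon1 is positive in every subcluster tested and Comp negative in every one of the 10 tested, while Thbs4 is called higher in 4 subclusters.

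Outside fibroblast-like cells the 10 genes gave 15 calls in 4 of the 10 other cell types tested, all higher in Arom. In endothelial cells 6 of 10 were called higher, against 8.56% of all genes. Thbs1, an inhibitor of angiogenesis, was the largest of them, at 71.4, 51.9 and 52.5 CPM in WT and 399, 439 and 147 CPM in Arom mice. All Arom mice were above WT, Arom mouse 3 the least (log2 fold change 2.49 ± 0.35, adjusted p = 0.00543), and the call held without each mouse in turn, as did that of Thbs2 (1.90 ± 0.34). The other 4, Cthrc1, Postn, Spon2 and Tnc, had Arom levels of 3.19 to 20.6 CPM. Without Arom mouse 1 only 2 genes were called, and 2.39% of all genes higher. The 6 fibroblast markers together were also higher in these sums, at 195 to 290 CPM in WT and 338 to 479 CPM in Arom mice, with Col1a1 (log2 fold change 1.59), Col3a1 (1.87), Mfap4 (1.27) and Lum (1.17) called and Pdgfra (0.91) and Dcn (0.13) not, and their part in these results was not tested. The level of Thbs1 in endothelial cells was 13.6% of that in fibroblast-like cells, those of Cthrc1 and Tnc were 5.69% and 4.17%, and those of Thbs2, Postn, Spon2, Col1a1, Dcn and Lum were 0.651% to 1.08%.

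In macrophage/monocyte cells 5 of 9 genes tested were called higher, against 0.446% of all genes. Cthrc1 stood at 0, 1.45 and 1.98 CPM in WT and 32.2, 38.9 and 36.3 CPM in Arom mice. Postn stood at 6.94, 5.81 and 11.9 CPM in WT and 74.4, 93.8 and 75.7 CPM in Arom mice. For both, the lowest Arom mouse was far above the highest WT mouse. A WT mouse held at most 2 UMIs of Cthrc1. Cthrc1, Postn and Spon2 passed the filter on low counts through the Arom mice, where they were high, so the count of 5 is a description and supports nothing further. Spon2 and Thbs2 (log2 fold changes 3.22 ± 0.34 and 2.76 ± 0.29) and Thbs1 (1.49 ± 0.20) were called as well. Same-numbered mice deviated together in these sums, and with the replicate block 6 of 9 genes were called, Thbs4 in addition, against 1.34% of all genes higher. The fibroblast markers together stood at 1982 to 3415 CPM in WT and 5199 to 6681 CPM in Arom macrophage/monocyte cells, and edgeR called 0 of 8 genes tested, and 0.0273% of all genes, once barcodes marked as doublets were left out (6 at an unadjusted p under 0.05). It called 0 of 9 without Arom mouse 2 (9 at an unadjusted p under 0.05, 0% of all genes called) and 1 without WT mouse 2 (0.0492% of all genes). The part of fibroblast RNA in these calls was not tested.

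In smooth muscle cells, which carry the highest Tnc, Tnc rose from 225, 177 and 187 CPM in WT to 508, 473 and 378 CPM in Arom mice (log2 fold change 1.11 ± 0.16, adjusted p = 0.0191). Every Arom mouse was above every WT mouse. Spon1 was also called (log2 fold change 2.43 ± 0.50), from 2.16 to 5.70 CPM in WT to 9.35 to 33.1 CPM in Arom mice, giving 2 of 9 genes against 1.79% of all genes, and it passed the filter on low counts only through the Arom mice. Without Arom mouse 3 there were 6 calls, with 15.8% of all genes called in either direction, and without any other mouse 0, with 3 to 6 genes at an unadjusted p under 0.05 and 0.0549% to 0.222% of all genes called. In glial cells Tnc (log2 fold change 1.48 ± 0.26) and Thbs2 (1.10 ± 0.21) were called, 2 of 9 against 0.358% of all genes, with Tnc at 19.3, 13.2 and 23.1 CPM in WT and 55.3, 73.4 and 37.1 CPM in Arom mice. Without WT mouse 1 or 2 or Arom mouse 1 or 2 there were 0 calls in glial cells, with 6 or 7 genes at an unadjusted p under 0.05 and 0.112% to 0.473% of all genes called. Without WT mouse 3 there was 1 call (0.286% of all genes), and without Arom mouse 3 there were 4 (1.27%), against 0.548% in either direction with every mouse. The fibroblast markers stood at 2446 to 4857 CPM in WT and 4287 to 5942 CPM in Arom smooth muscle cells, and at 6677 to 8840 CPM and 9098 to 10677 CPM in glial cells.

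In the remaining 6 cell types edgeR called 0 of the 8 to 10 genes tested. All genes were called at 1.12% in MuSC/myoblast cells, 0% in dendritic-like, 0% in lymphatic endothelial, 0.309% in mesothelial, 0.245% in myonuclei and 0.224% in pericytes. At an unadjusted p under 0.05 there were 6, 4, 5, 5, 4 and 7 of the genes tested in these types, in that order, and DESeq2 called 0, 0, 3, 3, 1 and 3, against 2.73%, 0.0135%, 0.231%, 4.29%, 0.543% and 0.701% of all genes. Samples with the same replicate number deviated together in MuSC/myoblast cells, myonuclei and pericytes, and with the replicate number as a block edgeR called 5 genes in MuSC/myoblast cells, 2 in myonuclei and 6 in pericytes, against 5.98%, 1.81% and 3.47% of all genes in these blocked fits. In pericytes these were Thbs1 (log2 fold change 0.74), Thbs2 (0.89), Thbs3 (0.93), Postn (0.78), Tnc (0.77) and Spon2 (1.37), all higher in Arom. The 6 fibroblast markers together stood in pericyte sums at 403 to 655 CPM in WT and 689 to 1001 CPM in Arom mice, with Col1a1 (log2 fold change 0.85) and Col3a1 (1.11) called without the block, and their part in these calls was not tested. In MuSC/myoblast cells Postn (2.58), Tnc (1.81), Spon1 (1.16) and Thbs1 (0.79) were higher and Thbs2 (-1.19) lower under the block, and in myonuclei Postn (2.51) was higher and Comp (-2.36) lower.

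**Figure D5:**
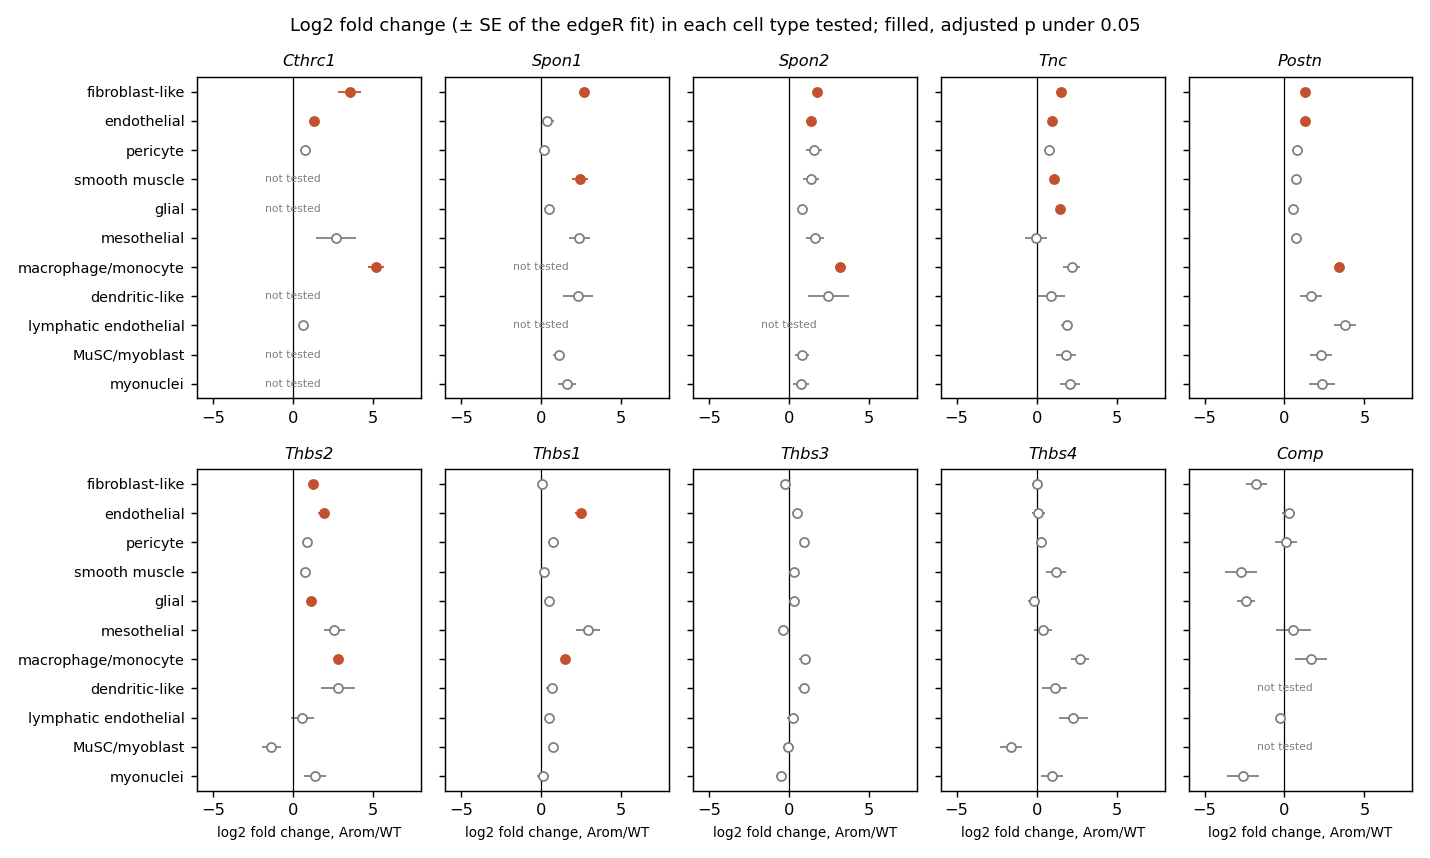
Log2 fold change (Arom against WT) of each gene in each of the 11 cell types tested, as points with bars of ± 1 SE on a linear axis, filled where the adjusted p was under 0.05. Fibroblast-like and endothelial cells have 6 filled points each, and no filled point is negative.

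Whether the genotype effect differed between fibroblast-like cells and another cell type was tested as an interaction. Spon1 rose more in fibroblast-like than in endothelial cells (difference of log2 fold changes 2.16 ± 0.41), glial cells (2.21 ± 0.29) and pericytes (2.49 ± 0.25). With the UMIs of all mice pooled, Spon1 stood in these types, in that order, at only 1.86%, 10.7% and 5.67% of its fibroblast-like level. Thbs1 rose more in endothelial cells (difference -2.31 ± 0.35, fibroblast-like minus endothelial) and in macrophage/monocyte cells (-1.45 ± 0.24) than in fibroblast-like cells. There were 4 such calls against endothelial cells (11.3% of all genes), 5 against macrophage/monocyte cells (1.22%), 2 against pericytes (3%), 1 against glial cells (2%) and 1 against lymphatic endothelial cells (1.05%). Against smooth muscle (3.17%), mesothelial (1.57%), MuSC/myoblast (0.895%) and dendritic-like cells (0.0763%) and myonuclei (0.433%) edgeR called 0 of the 10 genes. At an unadjusted edgeR p under 0.05 there were 3, 3, 4, 1 and 2 of them, in that order. By limma voom 0 were called as well, against 3.05%, 1.46%, 1.17%, 0.298% and 0.433% of all genes.

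With all barcodes of a mouse summed, 7 of the 10 genes were called higher in Arom mice, against 12.3% of all genes. They were the 6 called in fibroblast-like cells and Thbs1 (log2 fold change 0.75 ± 0.18, adjusted p = 0.0350). These sums also follow the share of each cell type in a library. Without WT mouse 2 or 3 or Arom mouse 1 or 2 edgeR called 0 of the 10 genes, with 8 at an unadjusted p under 0.05, and 0% to 0.0128% of all genes, against 23.5% in either direction with every mouse.

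Receptors that bind these proteins were followed in the same fibroblast-like sums. Of 25 receptor genes tested, 3 were called higher and 2 lower, counts near the 7.02% and 5.91% of all genes, with a median log2 fold change of 0.11. The integrin subunits Itga3 (log2 fold change 2.33, from 0.459 to 0.891 CPM in WT to 2.45 to 4.00 CPM in Arom mice) and Itgb3 (0.92) and the heparan sulfate proteoglycan Sdc1 (0.95) rose. The thrombospondin receptor Cd36 fell by 1.12 on the log2 scale, from 11.8, 17.3 and 14.6 CPM to 5.86, 7.58 and 6.74 CPM, and the integrin subunit Itgb8 fell by 0.75. Cd47 stood at 327, 350.2 and 304 CPM in WT and 333, 353 and 312 CPM in Arom mice (0.01 ± 0.11). Cd36 was among the leading genes of the subcluster led by Gpihbp1 and Cldn5. The summed endothelial markers in fibroblast-like sums stood at 187 to 236 CPM in WT and 132 to 155 CPM in Arom mice, and their part in the fall of Cd36 was not tested.

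Of 14 matrix and growth factor partners tested, 7 were called higher and 1 lower, against 7.02% and 5.91% of all genes, with a median log2 fold change of 0.68 against -0.000979 over all genes. The collagen genes Col12a1 (1.02), Col3a1 (1.01), Col1a1 (0.93), Col5a1 (0.93) and Col1a2 (0.90), the procollagen C-proteinase gene Bmp1 (0.83) and Tgfb1 (0.61) rose, and Tgfb3 fell by 0.69. Of 12 other matricellular genes tested, 2 were called higher, Smoc1 and Wisp1 (0.97), and 0 lower, with a median of 0.03, beside the same shares and median of all genes. Smoc1, a calcium-binding relative of Sparc, stood at 14.1, 7.52 and 11.0 CPM in WT and at 56.3, 58.2 and 55.1 CPM in Arom mice (2.35 ± 0.24), with the Arom mice nearly equal.

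For each member, the genes with the most similar mean levels over the 32 cell types and fibroblast subclusters were found by Pearson r on log2(CPM + 1). Col12a1 was nearest to Thbs2 (r = 0.92), Pcolce to Thbs3 (0.95), Cilp to Thbs4 (0.88), Vipr2 and Tnmd to Comp (0.84 and 0.81), Col5a2 to Postn (0.79), Adamts2 to Spon2 (0.91) and C1qtnf6 to Cthrc1 (0.87). Plod2 and Igf1 were nearest to Spon1 (both 0.86). Tnc and Thbs1 were each other's near neighbors (0.78), with the calcium channel gene Cacna1g as near to Tnc (0.78), and Spon2 and Thbs2 were alike at 0.90. The points share libraries and depth, and subclusters are parts of the fibroblast-like cells, so these are descriptions with no test.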

How the data were processed

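Single-cell RNA sequencing of lower abdominal muscle from 3 WT and 3 Arom mice was analysed. The authors aligned reads to mm10 with human CYP19A1 added and counted molecules with Cell Ranger 3.0.2, and deposited raw UMI counts per gene and barcode, with no normalization. The use of strand is not given in the sources used here. Of the barcode sequences, 471 occurred in more than 1 library. Cells with at least 200 genes and 1000 UMIs were kept, which left 7505 to 12999 cells of each mouse. The study's upper limits on genes and mitochondrial share were tried as an alternative because they left 1532 to 4932 barcodes of each mouse. The study also removed outliers by median absolute deviation, and that step was not applied here.

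Log-normalized counts (scaled to 10000 UMIs) of 2000 variable genes, without the 10 genes described, were reduced to 30 components and clustered (scanpy 1.11.5, leidenalg 0.10.2, resolution 0.8, 20 neighbors). Of 34 clusters, 5 with 1432 cells stayed unnamed, and a cluster of 351 cycling cells was set apart by a rule chosen after seeing the data. By Scrublet score, 1.15% to 2.92% of cells of each mouse were marked as doublets. For WT mouse 3 the threshold set by Scrublet marked 0% of cells, so the median threshold of the other mice (0.2488) was used. The marked cells were kept, and were left out as an alternative. Clusters were named from marker lists, so the names are rebuilt and may differ from the study's.

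For each cell type or subcluster with at least 20 cells in every mouse, the UMIs of a mouse were summed and tested with edgeR 4.0.16 in R 4.3.3 (TMM, filterByExpr, quasi-likelihood, Benjamini-Hochberg over all genes, threshold 0.05). SE is the log2 fold change divided by the square root of F. Counts at an unadjusted p under 0.05 are given without the share of all genes at that threshold. DESeq2 1.42.0 and limma 3.58.1 served as alternatives. CPM were computed from the same sums. All 10 genes are named in each comparison, as are up to 15 partner genes called in fibroblast-like cells and, for likeness, the nearest genes by Pearson r among those with at least 10 CPM in a type. The members and lists were chosen with earlier results of these data known. Cd47 and the fibroblast markers beside each result were named after their values were seen.

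As a pairing check, deviations from group means of same-numbered mice correlated above 0.1 in every pair in endothelial, MuSC/myoblast, macrophage/monocyte, myonuclei and pericyte sums, but not in fibroblast-like sums (r = 0.20, -0.12 and 0.16). The methods give 3 processing dates, each with 1 WT mouse and 1 Arom littermate. The labels do not tie the numbers to dates or litters, and the main fits hold genotype only. In endothelial cells the share of all genes called was 24.7% with the replicate block, against 15% without. The scripts were tested on simulated data. Each library is a separate mouse.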

Additional observations from a re-analysis of the deposited data

Results flagged for a closer look

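The following differences between the genotype effect in fibroblast-like cells and that in another cell type passed the test of the difference itself (edgeR interaction, adjusted over all genes). Each value is the log2 fold change in fibroblast-like cells minus that in the other type. Against macrophage/monocyte cells the values were -1.45 for Thbs1, -1.35 for Thbs3, -2.87 for Thbs4, -3.51 for Comp and -2.18 for Postn. Against endothelial cells they were -2.31 for Thbs1, -0.75 for Thbs3, -2.003 for Comp and 2.16 for Spon1. Against pericytes they were -1.16 for Thbs3 and 2.49 for Spon1, against glial cells 2.21 for Spon1, and against lymphatic endothelial cells 2.39 for Cthrc1. Pooled over mice, endothelial cells held Thbs3, Comp and Spon1 at 1.59%, 2.52% and 1.86% of their fibroblast-like levels. Within endothelial cells edgeR called none of these (adjusted p = 0.211, 0.717 and 0.505). In the interaction test a gene could pass the filter on low counts through the fibroblast-like sums alone.

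With each mouse left out in turn, the differences of Thbs1, Thbs4, Comp and Postn passed the test in all 6 fits against macrophage/monocyte cells, as did that of Thbs1 against endothelial cells and those of Spon1 against glial cells and pericytes. The difference of Spon1 against endothelial cells was lost in 1 of 6 such fits, that of Comp against endothelial cells in 2, those of Thbs3 against macrophage/monocyte cells and pericytes in 3 each, and those of Thbs3 against endothelial cells and Cthrc1 against lymphatic endothelial cells in 5 each. By limma voom the differences of Postn and Thbs3 against macrophage/monocyte cells (adjusted p = 0.0535 and 0.101), Thbs3 against endothelial cells (0.0644) and Cthrc1 against lymphatic endothelial cells (0.0672) did not pass. The macrophage/monocyte sums held 5199 to 6681 CPM of fibroblast markers in Arom mice and 1982 to 3415 CPM in WT mice. The part of these in the differences was not tested. Within macrophage/monocyte cells edgeR did not call Thbs4 or Comp (adjusted p = 0.101 and 0.684). Postn passed the filter on low counts there through the Arom mice. Without marked doublets, at the other clustering resolutions and with column blocks, edgeR called none of the genes tested in these cells. The differences were not tested in those settings, so the 6 fits speak only to the mouse left out.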

How the results depend on the processing

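The number of members called in fibroblast-like cells was within 1.5 times the main count, 6, under DESeq2 (6), the replicate block (5) and subclusters present in every mouse (4), but fell to 0 within the study's limits on genes, UMIs and mitochondrial share. The share of all genes called, given in parentheses for each of the next counts, was there 19.3%, 10.6%, 5.22% and 0.00914%, against 12.9%. Endothelial calls fell to 3 within those limits (7.95%) and to 3 with at most 5% mitochondrial UMIs (13.8%, against 8.56% higher and 6.44% lower). Macrophage/monocyte calls were 0 within the study's limits on genes, UMIs and mitochondrial share, where 1 gene could be tested (0%), without marked doublets (0.0273%), and at resolutions 0.4 and 1.2 and with the blocks of columns as clusters (0% in each, against 0.459%). Glial calls were 5 with the replicate block (1.81%), 0 with the mitochondrial limit (0.0368%) and 1 without marked doublets (0.344%), at resolution 1.2 (0.484%) and with column blocks (0.802%, against 0.548%). Smooth muscle calls were 5 with no filter on low counts (4.51%), 4 with the replicate block (10.2%), 1 without marked doublets (1.46%) and 5 with column blocks (3.59%, against 2.58%). In types with 0 main calls, the unfiltered test gave 3 in MuSC/myoblast cells (3.34%), 4 in lymphatic endothelial cells (0.658%), 1 in myonuclei (0.831%) and 3 in pericytes (0.558%), and DESeq2 gave 3 in lymphatic endothelial cells (0.231%), 1 in myonuclei (0.543%), 3 in pericytes (0.701%) and 3 in mesothelial cells (4.29%). The replicate block gave 5 in MuSC/myoblast cells (5.98%), 3 in dendritic-like cells (0.612%), 2 in mesothelial cells (3.64%), 2 in myonuclei (1.81%) and 6 in pericytes (3.47%). Resolution 0.4 gave 2 in MuSC/myoblast cells (2.9%), and column blocks gave 3 there (3.89%) and 1 each in lymphatic endothelial cells (0.0785%) and pericytes (0.94%). The cause was not tested.

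Fibroblast-like log2 fold changes within the study's limits on genes, UMIs and mitochondrial share were -0.16 for Thbs1, 0.58 for Thbs2, 1.66 for Postn, 0.73 for Tnc, 1.90 for Spon1, 1.07 for Spon2 and 2.80 for Cthrc1. With the mitochondrial limit alone, Thbs1 stood at -0.0104 and Thbs4 at 0.24, and with column blocks Thbs4 at 0.0247. Over subclusters present in every mouse, Thbs2 and Spon2 stood at 0.62, Thbs3 at 0.16 and Thbs4 at 0.49. With equal weight of each of the 14 tested subclusters (limma), Thbs3 stood at 0.068, Thbs4 at 1.22 and Tnc at 1.12 (adjusted p = 0.0508). The value of Thbs4 includes the subcluster led by Esm1 and Gdf10, where WT mice held nearly no UMIs of it. With the replicate block, Tnc stood at 1.53 (adjusted p = 0.0547). Subcluster calls were 60 higher and 8 lower with no filter, and 50 higher and 8 lower with the block. Interaction calls by limma voom were 2 for glial (2.21% of all genes), 0 for lymphatic endothelial (1.02%), 3 for macrophage/monocyte (0.708%) and 4 for pericytes (3.58%). The Thbs3 share without thinning was 2.67 points higher in Arom mice.

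With 1 mouse left out, member calls ranged over 0 to 8 in fibroblast-like cells, 2 to 6 in endothelial, 0 to 6 in macrophage/monocyte and smooth muscle cells, 0 to 4 in glial cells, 0 to 5 in mesothelial cells and 0 to 1 in MuSC/myoblast, dendritic-like, lymphatic endothelial cells, myonuclei and pericytes. The share of all genes called ranged in the first 6 of these, in that order with smooth muscle after macrophage/monocyte cells, over 0.0214% to 29.2%, 4.08% to 14.7%, 0% to 0.639%, 0.0549% to 15.8%, 0.112% to 1.27% and 0% to 13.5%. For the types with 0 to 1 calls, in the order named, it ranged over 0% to 7.69%, 0% to 0.401%, 0% to 0.0489%, 0.0245% to 0.921% and 0% to 1.08%. Fibroblast-like log2 fold changes ranged from -0.0138 to 0.20 for Thbs1, 0.97 to 1.46 for Thbs2, -0.50 to -0.0939 for Thbs3, -0.25 to 0.21 for Thbs4, -2.81 to -1.33 for Comp, 1.17 to 1.53 for Postn, 1.23 to 1.71 for Tnc, 2.48 to 2.93 for Spon1, 1.59 to 2.01 for Spon2 and 2.98 to 4.02 for Cthrc1. Subcluster calls ranged from 19 to 41 higher and 2 to 6 lower. Interaction calls ranged over 2 to 4 for endothelial, 1 to 2 for glial, 4 to 7 for macrophage/monocyte, 1 to 5 for pericytes, 0 to 3 for dendritic-like and 0 to 2 for MuSC/myoblast, lymphatic endothelial, mesothelial, smooth muscle cells and myonuclei. The number of genes whose shares did not overlap was 6 to 8, and 7 to 7 led in fibroblast-like cells. With a mouse left out, no share over all genes is given here for the interaction calls or for the shares that did not overlap. Those ranges are descriptions only.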

Other observations

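In the fibroblast-like sums Dcn, a fibroblast marker, stood at 27048 to 32336 CPM in WT and 15573 to 19142 CPM in Arom mice. The other fibroblast markers went the other way. Col1a1 (log2 fold change 0.93) and Col3a1 (1.01) were called higher, and Mfap4 (0.47), Pdgfra (0.31) and Lum (0.28) were not called.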
